A study of Mus musculus with 6 samples.

Results

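Of the genes whose products make, release, sense or break down sphingosine-1-phosphate (S1P), 10 are the subject here, measured in mouse liver. Others, such as the receptor genes *S1pr4* and *S1pr5*, are given further below. The 10 are called the S1P genes. These 10 are the kinase genes *Sphk1* and *Sphk2*, the lyase gene *Sgpl1*, the phosphatase genes *Sgpp1* and *Sgpp2*, the exporter genes *Spns2* and *Mfsd2b*, and the receptor genes *S1pr1*, *S1pr2* and *S1pr3*. They were chosen by name for these roles, with earlier results of these data known. Each has 1 row among the 54532 genes listed in the deposited count table. All 10 passed the filter on low counts, which kept 15449 genes. *Sphk1* and *Sgpp2* passed it only through their counts in 1 of the groups compared, as given below.

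S1P is a signaling lipid that carries a sphingosine backbone. Sphingosine is freed from ceramide by ceramidases, and sphingosine kinases add the phosphate. S1P phosphatases return S1P to sphingosine, which can be reused for ceramide, whereas S1P lyase cleaves it irreversibly and is the exit from the whole sphingolipid pathway. S1P that leaves a cell travels in plasma on apolipoprotein M and albumin and acts on G protein–coupled receptors. In the liver, S1P receptors are known from sinusoidal endothelium, stellate cells and hepatocytes, and much of the plasma apolipoprotein M is made by hepatocytes.

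RNA-Seq of whole liver was available for 3 g*Spns1*-cKO and 3 control mice on the C57BL/6 background, with 1 library per mouse. The g*Spns1*-cKO mice carried floxed *Spns1* alleles (*Spns1* fl/fl) and Rosa26Cre-ERT2, a Cre recombinase that is expressed throughout the body and is active only with tamoxifen. Per the methods of the study, the mice received tamoxifen at 50 mg/kg on days 11, 13 and 15 after birth. The design aims to remove exon 3 of *Spns1* in the whole body rather than in hepatocytes alone. How complete the removal was in each cell type is not given in the sources used here. The sample labels call the control mice wild type, whereas the methods use *Spns1* fl/fl littermates without Cre as controls; whether the control mice received tamoxifen, and the age at which these livers were taken, are not given in the sources used here. *Spns1* encodes a lysosomal transporter of lysophospholipids and is a relative of *Spns2*, so the comparison asks how the S1P genes are expressed in the liver after deletion of this transporter. Replicates are separate mice.

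The libraries held 30350002 to 35295611 counts, and 3 counts corresponded to 0.0763 to 0.119 CPM (the reads of a gene relative to its library's size after TMM, the trimmed mean of M values). *Spns1* itself was at 35.9, 50.7 and 34.6 CPM in control mice 1, 2 and 3 and at 17.8, 30.6 and 17.8 CPM in g*Spns1*-cKO mice 1, 2 and 3. The groups did not overlap, and the log2 fold change was −0.87 (SE 0.25, adjusted p = 0.0300, edgeR, quasi-likelihood test, Benjamini-Hochberg adjustment), a call that was lost when control 2, g*Spns1*-cKO 1 or g*Spns1*-cKO 3 was left out (adjusted p 0.0785 to 0.0910), with library size alone (−0.43, adjusted p = 0.213) and with upper-quartile scaling (−0.74, adjusted p = 0.0635). Counts are per gene, so the deleted exon was not seen on its own. Over all genes tested, 3286 rose and 3166 fell. The TMM factors were 0.834 to 0.873 in control and 1.16 to 1.18 in g*Spns1*-cKO libraries, and without them, with scaling by library size alone, the median over all genes shifted from 0.014 to 0.46 on the log2 scale, with 7289 higher and 970 lower genes. Fold changes below are on the TMM scale unless another scaling is named.

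Of the 10 S1P genes, *Sphk1*, *Sgpl1* and *Sgpp2* rose and *Sphk2* fell in g*Spns1*-cKO livers, and 6 did not pass the test. Of all genes tested, 41.8% passed in either direction, 21.3% as higher and 20.5% as lower, so a count of 4 of 10 was close to the share over all genes. *Sphk1* and *Sgpp2* had 6 to 17 and 3 to 8 counts in control libraries. They entered the test only through the g*Spns1*-cKO libraries, where they were higher. With at least 10 counts required in every library they were not tested, and of 8 S1P genes tested 1 rose and 1 fell. The median log2 fold change was 0.26 over the 10 S1P genes, *Sphk1* and *Sgpp2* included, and 0.014 over all genes. With at least 10 counts required in every library it was 0.064 over the 8 S1P genes tested and 0.0089 over all genes. In *Sphk1*, *Sgpl1*, *Sgpp2* and *S1pr3* each g*Spns1*-cKO liver was above each control liver and in no S1P gene was the order the opposite, against 27.1% and 26.9% of all genes tested, 54.1% together. In whole liver, fewer cells of a type and less RNA per cell cannot be told apart, and markers of several cell types moved in the same comparison, as given below. With library size alone 7 S1P genes were higher and 0 lower. *Sphk1* and *Sgpp2* were also among the sphingolipid genes that the study chose to display from these samples, so their direction is not independent evidence.

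**Figure D1:**
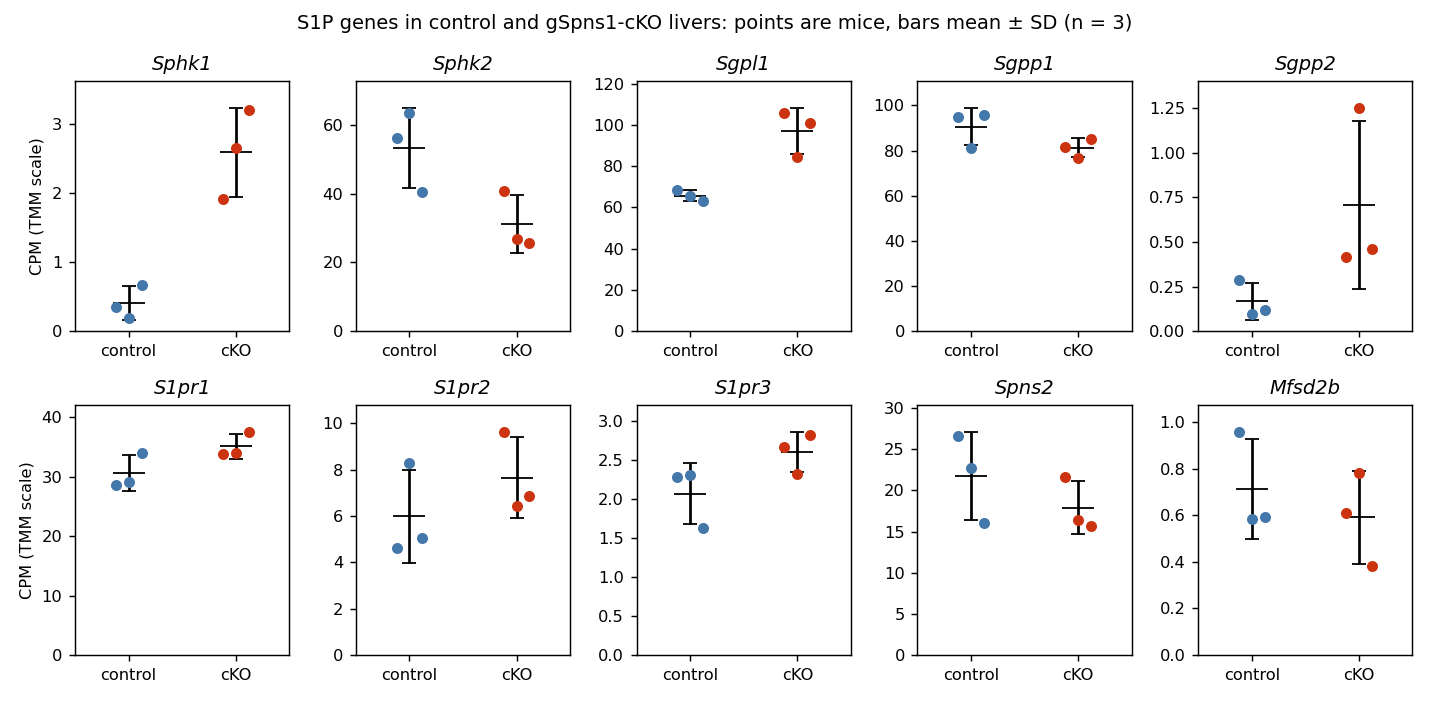
Expression of the 10 S1P genes in CPM on the TMM scale (y axis, from 0, with its own scale for each gene) in control (blue) and g*Spns1*-cKO (red) livers. Each point is 1 mouse and the bars are mean ± SD (n = 3); the groups stand apart for *Sphk1*, *Sgpl1*, *Sgpp2* and narrowly for *S1pr3*, and overlap for the other 6 genes.

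Start regions of the 4 genes that passed the test are shown for reference. A link between these letters and the changes was not tested. Each is the 250 bases before a RefSeq transcript start (GRCm38.p6), 5′ to 3′ on the strand of the gene, with matches to the motifs below in capitals on either strand. Of the 10 genes, 9 had such a window in the RefSeq table, 14 windows in all, and *S1pr1* was not matched. For *Sphk1* and *Sphk2*, which have several starts, 1 window without exon bases of the gene is shown. The *Sphk1* window lies inside the deposited gene, which starts at base 116530925. The last 19 bases of the *Sgpl1* window lie in its first exon in GENCODE M21.
Sphk1, chr11:116532194-116532443, plus strand: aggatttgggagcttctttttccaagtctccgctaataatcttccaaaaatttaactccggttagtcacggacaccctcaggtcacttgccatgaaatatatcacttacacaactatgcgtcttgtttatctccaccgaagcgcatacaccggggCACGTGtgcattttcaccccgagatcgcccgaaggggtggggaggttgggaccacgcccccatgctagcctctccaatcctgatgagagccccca
Sphk2, chr7:45718003-45718252, minus strand: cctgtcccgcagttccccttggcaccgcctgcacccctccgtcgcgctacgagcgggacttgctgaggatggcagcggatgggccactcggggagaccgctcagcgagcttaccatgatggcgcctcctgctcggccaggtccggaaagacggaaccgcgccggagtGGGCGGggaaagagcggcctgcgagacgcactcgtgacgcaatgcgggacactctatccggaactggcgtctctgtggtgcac
Sgpl1, chr10:61147685-61147934, minus strand: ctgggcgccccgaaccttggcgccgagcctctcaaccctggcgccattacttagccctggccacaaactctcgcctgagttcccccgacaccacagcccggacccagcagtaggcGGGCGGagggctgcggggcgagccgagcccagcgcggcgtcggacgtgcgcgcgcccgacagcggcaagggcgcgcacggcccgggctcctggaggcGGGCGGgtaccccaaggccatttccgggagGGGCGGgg
Sgpp2, chr1:78310096-78310345, plus strand: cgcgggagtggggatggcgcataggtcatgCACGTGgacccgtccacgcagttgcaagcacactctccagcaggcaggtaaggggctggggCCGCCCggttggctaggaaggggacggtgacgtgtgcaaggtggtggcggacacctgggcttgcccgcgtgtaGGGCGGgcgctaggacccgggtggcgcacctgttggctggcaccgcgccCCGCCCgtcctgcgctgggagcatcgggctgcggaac

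The motifs were the E-box CACGTG, the AP-1 site TGANTCA, the GC box GGGCGG and the TATA box TATAAA. The printed *Sphk1* window held 1 E-box and no GC box, and the printed *Sphk2* window held 1 GC box and no E-box. The most upstream *Sphk1* window, from base 116530850, held 1 TATA box and no E-box, so the matches depend on the window. *Sgpp2* held 1 E-box and 3 GC boxes, and *Sgpl1* held 3 GC boxes. The GC content of these windows was 51.6% for *Sphk1*, 67.6% for *Sphk2*, 74.8% for *Sgpl1* and 70.8% for *Sgpp2*, with a median of 52.4% over all 32851 windows of the same length. The E-box was present in 6.02% and the GC box in 32.7% of all windows, the AP-1 site in 6.75% and the TATA box in 12.4%. Over all windows of the S1P genes, 2 genes held an E-box, 5 a GC box, 1 an AP-1 site and 1 a TATA box, the last 2 in other windows of *Sphk1*. These are matches of letters and not measured binding.

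The sphingosine kinases changed in opposite directions. *Sphk1* (ENSMUSG00000061878, chr11:116530925-116536674, GRCm38) encodes the mainly cytosolic kinase that moves to the plasma membrane on stimulation. It was at 0.356, 0.195 and 0.672 CPM in control mice 1, 2 and 3, from 10, 6 and 17 counts. In g*Spns1*-cKO mice 1, 2 and 3 it was at 1.92, 2.66 and 3.21 CPM, from 69, 102 and 126 counts. The lowest g*Spns1*-cKO liver was above the highest control liver. The fold was 6.46, with a log2 fold change of 2.69 (SE 0.42, 95% interval 1.75 to 3.63, adjusted p = 0.000779, edgeR). The two-sided exact permutation test gave p = 0.1, the smallest that 3 against 3 mice allow. An opposite-strand gene that shares 192 exon bases with *Sphk1*, *Gm29292*, had at most 3 counts in any library.

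*Sphk2* (ENSMUSG00000057342, chr7:45709467-45718002) encodes the kinase found in the nucleus, mitochondria and endoplasmic reticulum. It was at 56.0, 63.3 and 40.5 CPM in control mice 1, 2 and 3 and at 40.8, 26.7 and 25.6 CPM in g*Spns1*-cKO mice 1, 2 and 3. Control 3 and g*Spns1*-cKO 1 were at nearly the same level, so the groups touched. The log2 fold change was −0.78 (SE 0.22, 95% interval −1.29 to −0.27, adjusted p = 0.0244, edgeR), and the exact permutation test gave p = 0.2. The call was lost without control 1, control 2, g*Spns1*-cKO 2 or g*Spns1*-cKO 3 (log2 fold change −0.76 to −0.65, adjusted p 0.0667 to 0.0864) and with library size alone (−0.34, adjusted p = 0.239).

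Exons of *Sphk2* overlap those of 2 genes on the opposite strand, *Dbp*, a circadian transcription factor, over 539 bases and *Rpl18*, a ribosomal protein gene, over 373 bases. Together these are 21.9% of its exon bases, and whether reads were counted by strand is not given in the sources used here. *Dbp* was at 119, 99.8 and 101 CPM in control mice 1, 2 and 3 and at 34.8, 10.3 and 8.39 CPM in g*Spns1*-cKO mice 1, 2 and 3, a log2 fold change of −2.58 (SE 0.65, adjusted p = 0.0348, edgeR). The *Dbp* call held without g*Spns1*-cKO 1 and was lost without any other mouse (−2.64 to −2.24, adjusted p 0.0664 to 0.104). *Rpl18* fell from a mean of 358 ± 48.0 (SD of 3 mice) to 224 ± 27.3 CPM, with a log2 fold change of −0.68 (SE 0.15, adjusted p = 0.00446, edgeR), and did not pass with library size alone (−0.23, adjusted p = 0.210). g*Spns1*-cKO 1 was the highest of its group for both *Sphk2* and *Dbp*. The part of these shared bases in the *Sphk2* result was not tested.

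**Figure D2:**
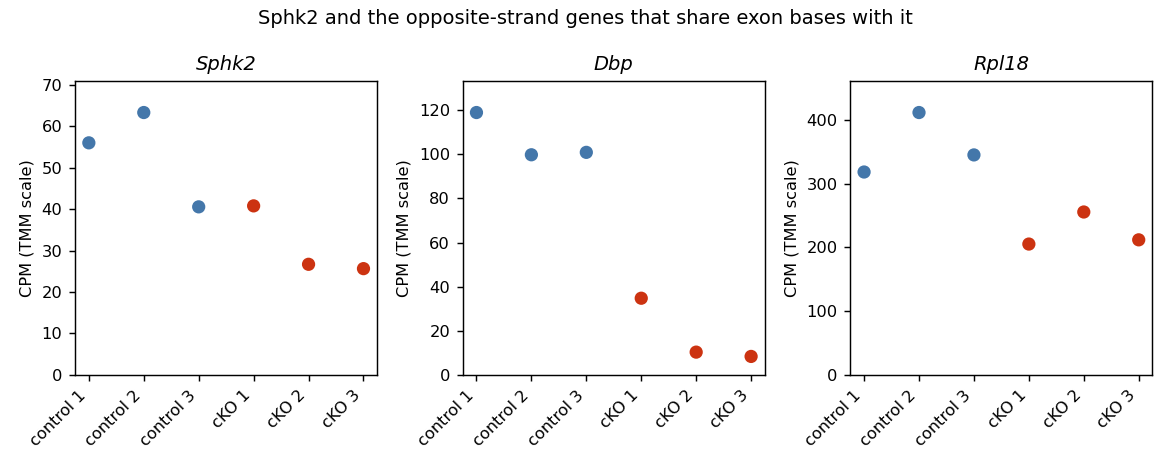
CPM on the TMM scale (y axes, from 0) of *Sphk2* and of *Dbp* and *Rpl18*, which share exon bases with it on the opposite strand, in control (blue) and g*Spns1*-cKO (red) livers, 1 point per mouse. *Dbp* and *Rpl18* were lower in each g*Spns1*-cKO liver than in each control liver, whereas g*Spns1*-cKO 1 and control 3 met for *Sphk2*.

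Within a library the balance of the kinases can be read without any scaling between libraries. Per kilobase of gene length, *Sphk1* had 0.553, 0.268 and 1.44 counts for each 100 counts of *Sphk2* in control mice 1, 2 and 3. In g*Spns1*-cKO mice 1, 2 and 3 it had 4.10, 8.68 and 10.9. The groups did not overlap, and *Sphk2* had the larger count per kilobase in each of the 6 livers. This ratio rests on *Sphk2*, whose shared exon bases are described above, and on 6 to 17 *Sphk1* counts in control libraries. The sum of both kinases, unlike the ratio, depends on the scaling between libraries. On the TMM scale it was 12.9 ± 2.74 CPM per kilobase in the controls and 8.01 ± 1.91 with g*Spns1*-cKO (mean ± SD of 3 mice each), with overlapping groups.

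*Sgpl1* (ENSMUSG00000020097, chr10:61098642-61147703) encodes S1P lyase, the endoplasmic reticulum enzyme that ends the life of S1P as a sphingolipid. It was at 68.2, 65.7 and 63.0 CPM in control mice 1, 2 and 3 and at 106, 84.5 and 101 CPM in g*Spns1*-cKO mice 1, 2 and 3. The control livers lay close together, and each g*Spns1*-cKO liver was above them. The fold was 1.48, with a log2 fold change of 0.56 (SE 0.11, 95% interval 0.31 to 0.82, adjusted p = 0.00317, edgeR; exact permutation p = 0.1). The lyase also rose against the kinases of the same library: per kilobase it had 82.0, 70.1 and 104 counts for each 100 counts of both kinases together in the controls, and 169, 197 and 239.9 in g*Spns1*-cKO livers. The kinase sum holds *Sphk2*, whose shared exon bases are described above.

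**Figure D3:**
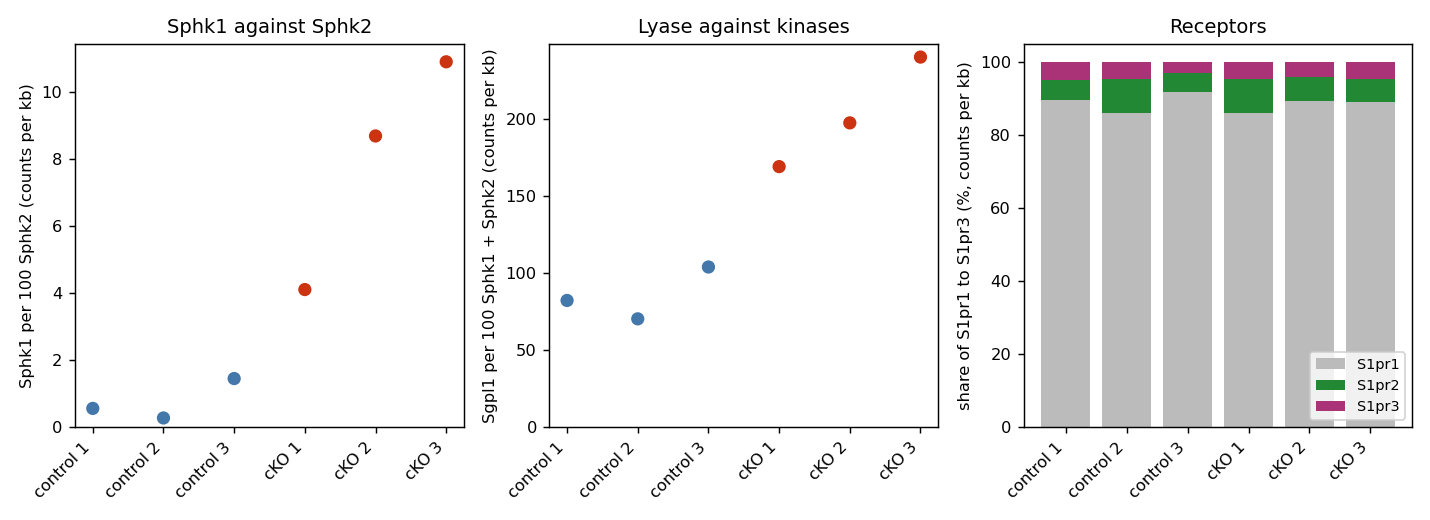
Ratios of counts per kilobase within each library, 1 point or bar per mouse (control blue, g*Spns1*-cKO red). *Sphk1* against *Sphk2* and *Sgpl1* against both kinases were higher in each g*Spns1*-cKO liver than in each control liver, and the shares of *S1pr1*, *S1pr2* and *S1pr3* among these 3 receptors (stacked bars, %) were alike in both groups. Both ratios hold *Sphk2*, which shares exon bases with *Dbp* and *Rpl18*. *S1pr5*, which fell against *S1pr1*, is not in the bars.

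Of the phosphatases, the abundant one did not pass the test and the rare one rose. *Sgpp1* (ENSMUSG00000021054, chr12:75714249-75735729), which returns S1P to sphingosine in the endoplasmic reticulum, was at 95, 81.0 and 95.8 CPM in control mice 1, 2 and 3 and at 81.6, 76.7 and 85.3 CPM in g*Spns1*-cKO mice 1, 2 and 3. The groups overlapped. Its log2 fold change was −0.16 (95% interval −0.40 to 0.086, adjusted p = 0.277, edgeR; exact permutation p = 0.3), and with library size alone it was 0.29 (adjusted p = 0.0392, edgeR).

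*Sgpp2* (ENSMUSG00000032908, chr1:78310345-78420289), its paralog, had only 8, 3 and 3 counts in control mice 1, 2 and 3 and 15, 48 and 18 counts in g*Spns1*-cKO mice 1, 2 and 3. These are 0.285, 0.0974 and 0.119 CPM against 0.417, 1.25 and 0.458 CPM. g*Spns1*-cKO 2 stood well above the other two of its group. The log2 fold change was 2.07 (SE 0.64, 95% interval 0.65 to 3.48, adjusted p = 0.0252, edgeR; exact permutation p = 0.1). The call was lost without control 2 (1.77, adjusted p = 0.0900), control 3 (1.88, adjusted p = 0.0835) or g*Spns1*-cKO 2 (1.37, adjusted p = 0.134). Per kilobase, *Sgpp2* had 0.423, 0.170 and 0.175 counts for each 100 of *Sgpp1* in control mice 1, 2 and 3 and 0.721, 2.30 and 0.758 in g*Spns1*-cKO mice 1, 2 and 3, so *Sgpp1* was by far the larger transcript in both groups. *Sgpp2* shares 248 exon bases, 6.2% of its own, with the opposite-strand gene *Farsb*, which had 835 to 1203 counts and a log2 fold change of −0.35 (adjusted p = 0.0628, edgeR).

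Neither exporter passed the test. *Spns2* (ENSMUSG00000040447, chr11:72451638-72489904), the S1P exporter of endothelial cells and the relative of *Spns1*, was at 26.6, 22.8 and 16.0 CPM in control mice 1, 2 and 3 and at 21.6, 16.3 and 15.7 CPM in g*Spns1*-cKO mice 1, 2 and 3. The groups overlapped, and the log2 fold change was −0.29 (95% interval −0.72 to 0.15, adjusted p = 0.270, edgeR; exact permutation p = 0.3). An opposite-strand gene that was higher in g*Spns1*-cKO livers, *Mybbp1a* (log2 fold change 0.40, adjusted p = 0.0295, edgeR), shares 131 exon bases with it, and its call was lost without control 2, control 3 or g*Spns1*-cKO 3 (adjusted p 0.0736 to 0.125). *Mfsd2b* (ENSMUSG00000037336, chr12:4862440-4874359), the exporter of red blood cells and platelets, had 27, 18 and 15 counts in control mice 1, 2 and 3 and 22, 30 and 15 counts in g*Spns1*-cKO mice 1, 2 and 3. Its log2 fold change of −0.27 had an interval from −1.21 to 0.67 (adjusted p = 0.643, edgeR; exact permutation p = 0.6), wide in both directions at this depth. With library size alone, *Spns2* was at 0.15 (adjusted p = 0.546) and *Mfsd2b* at 0.17 (adjusted p = 0.749).

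The receptors of the S1P list were each higher on average in g*Spns1*-cKO livers, and none passed the test on the TMM scale. *S1pr1* (ENSMUSG00000045092, chr3:115710433-115715072), the receptor of endothelial cells and lymphocytes that couples to Gi, was at 28.7, 29.1 and 34.0 CPM in control mice 1, 2 and 3 and at 33.9, 33.9 and 37.6 CPM in g*Spns1*-cKO mice 1, 2 and 3. Control 3 reached the level of the g*Spns1*-cKO livers. The log2 fold change was 0.20 (95% interval −0.044 to 0.44, adjusted p = 0.171, edgeR; exact permutation p = 0.3).

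*S1pr2* (ENSMUSG00000043895, chr9:20962361-20976781), a receptor that also couples to G12/13 and responds to conjugated bile acids, was at 4.62, 8.28 and 5.06 CPM in control mice 1, 2 and 3 and at 9.65, 6.44 and 6.87 CPM in g*Spns1*-cKO mice 1, 2 and 3. Control 2 stood within the g*Spns1*-cKO range, and the log2 fold change was 0.35 (95% interval −0.21 to 0.90, adjusted p = 0.289, edgeR; exact permutation p = 0.3). *S1pr3* (ENSMUSG00000067586, chr13:51408639-51422797), a receptor of vascular and stellate cells, was at 2.28, 2.31 and 1.62 CPM in control mice 1, 2 and 3 and at 2.67, 2.32 and 2.82 CPM in g*Spns1*-cKO mice 1, 2 and 3. The groups did not overlap, though control 2 and g*Spns1*-cKO 2 were nearly equal, and the log2 fold change was 0.33 (95% interval −0.21 to 0.87, adjusted p = 0.309, edgeR; exact permutation p = 0.1). With library size alone all 3 passed, *S1pr1* at 0.65 (adjusted p = 0.000637), *S1pr2* at 0.79 (adjusted p = 0.0243) and *S1pr3* at 0.77 (adjusted p = 0.0253). *S1pr1* also passed with upper-quartile scaling (0.33, adjusted p = 0.0307).

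The makeup of the 3 receptors of the S1P list, which needs no scaling, differed little between the groups. Per kilobase, *S1pr1* made up 89.1% ± 2.92 of them in control mice and 88.2% ± 1.89 in g*Spns1*-cKO mice (mean ± SD, n = 3). *S1pr2* made up 6.69% ± 2.30 and 7.36% ± 1.74, and *S1pr3* 4.16% ± 1.03 and 4.46% ± 0.250. All 3 shares overlapped between the groups.

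**Figure D4:**
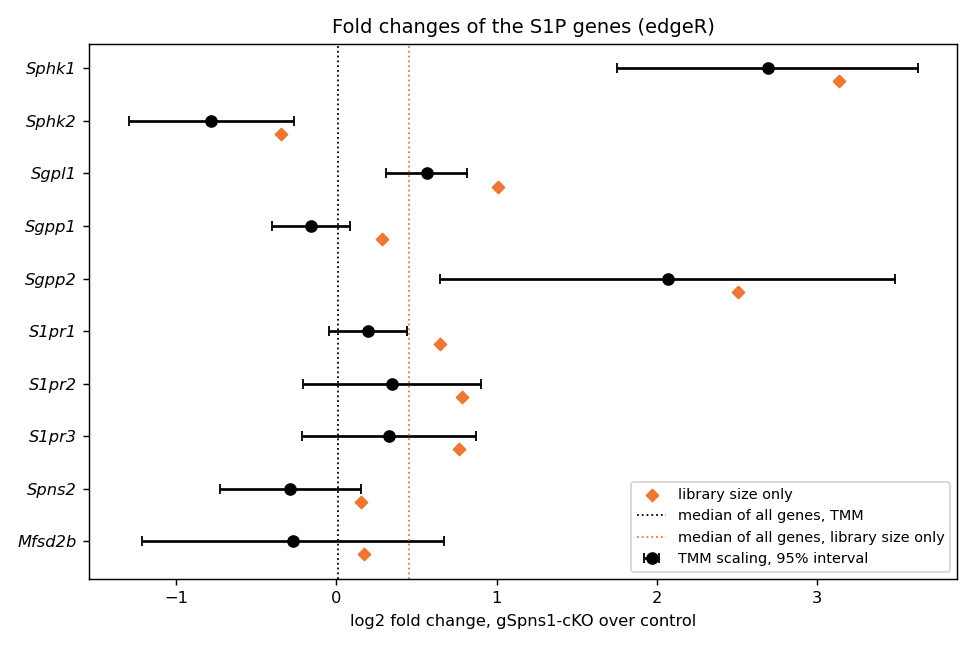
Log2 fold changes of the 10 S1P genes, g*Spns1*-cKO over control (x axis). Black points with bars are TMM-scaled values with 95% intervals and orange diamonds are values scaled by library size alone, with dotted lines at the median of all genes under each (0.014 and 0.46); *Sphk1*, *Sgpl1* and *Sgpp2* lay to the right of 0 and *Sphk2* to the left with intervals that leave out 0.

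Levels of different genes can be ranked per kilobase. In control livers the order of mean CPM per kilobase was *Sgpp1* (16.0), *Sphk2* (12.8), *Sgpl1* (10.7) and *S1pr1* (10.05), each of which overlapped the next over the 3 mice. *Spns2* (5.34), *S1pr2* (0.751) and *S1pr3* (0.463) followed without overlap, and *Mfsd2b* (0.138), *Sphk1* (0.0853) and *Sgpp2* (0.0417) came last and overlapped in that order. In g*Spns1*-cKO livers *Sgpl1* (15.8) came first, overlapping *Sgpp1* (14.4), ahead of *S1pr1* (11.5) and *Sphk2* (7.46). *Sphk1* (0.543) overlapped *S1pr3* (0.583) there, and *Sgpp2* (0.177) overlapped *Mfsd2b* (0.115).

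Markers of several cell types of the liver moved in the same comparison. Counts and sums are on the TMM scale, where 21.3% of all genes tested were higher and 20.5% lower. The marker lists were not counted under other scalings. The summed level of 6 hepatocyte markers was 96951 to 109242 CPM in control and 58479 to 67520 CPM in g*Spns1*-cKO livers, with 3 of 6 lower and 0 higher. Most of this sum was *Alb* (means 69348 and 41886 CPM), which did not pass with library size alone (−0.28, adjusted p = 0.210, edgeR). All of the 6 but *Cps1* had a negative log2 fold change. *Cps1* was higher in each g*Spns1*-cKO liver (means 2833 and 3633 CPM, log2 fold change 0.36) and did not pass the test. Of 10 endothelial markers 6 were higher (sums 227 to 251 against 308 to 366 CPM), as were 6 of 6 Kupffer cell markers (131 to 221 against 446 to 711 CPM). The list of recruited or lipid-associated macrophages had 6 of 7 higher (12.1 to 16.6 against 148 to 172 CPM), that of stellate cells and fibroblasts 6 of 9 (218 to 249 against 520 to 595 CPM), and that of cholangiocytes 5 of 5 (5.46 to 6.72 against 23.2 to 32.1 CPM). Of 2 neutrophil markers tested, 2 were higher (sums over the 5 listed 1.85 to 3.83 against 4.75 to 8.88 CPM). Beside *Mfsd2b*, the erythroid list had 2 higher and 1 lower of 6 tested (138 to 160 against 88.8 to 195 CPM) and the platelet list 1 higher of 2 tested (4.15 to 6.79 against 5.20 to 6.03 CPM, with *Gp1bb* at 0 in all libraries). T and NK cell markers had 2 higher, *Nkg7* and *Ncr1*, and 1 lower, *Cd4*, of 6 (3.52 to 4.22 against 4.78 to 5.79 CPM). B cell markers had 0 of 3 in either direction (0.830 to 1.85 against 1.53 to 2.20 CPM). The part of these cell types in any S1P gene was not tested.

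Among other genes around S1P, a list of 38 that supply, carry or respond to it, 35 passed the filter. Of these 7 rose and 9 fell, 19 did not pass, and the median log2 fold change was 0.22, beside 21.3% higher, 20.5% lower and a median of 0.014 over all genes tested. The share of the list that passed was near that of all genes. With library size alone 20 were higher and 2 lower, and with upper-quartile scaling 14 and 6. The most changed was *S1pr5* (ENSMUSG00000045087), the S1P receptor known from natural killer cells and oligodendrocytes. It was at 9.89, 15.4 and 14.8 CPM in control mice 1, 2 and 3 and at 3.34, 3.86 and 3.13 CPM in g*Spns1*-cKO mice 1, 2 and 3. The groups did not overlap, with a log2 fold change of −1.96 (SE 0.20, adjusted p = 6.11e-05, edgeR). Per kilobase it had 42.0, 64.5 and 53.1 counts for each 100 of *S1pr1* in control mice 1, 2 and 3 and 12, 13.8 and 10.1 in g*Spns1*-cKO mice 1, 2 and 3. Of the T and NK cell markers above, *Nkg7* (log2 fold change 1.76, adjusted p = 0.0137, edgeR) and *Ncr1* (4.98, adjusted p = 0.00121, edgeR) were higher. *Cd4* was lower (−1.26, adjusted p = 0.0212, edgeR), and 3 did not pass. *Ncr1* had 1, 0 and 0 counts in control mice 1, 2 and 3. The cell type behind the *S1pr5* values was not tested. *S1pr4*, the receptor of blood cells, had at most 27 counts in any library and did not pass the test (log2 fold change 0.35, adjusted p = 0.544, edgeR).

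The genes that supply sphingosine rose where they passed. Of 5 ceramidases, *Acer1* was at 0 in all libraries and 2 of 4 tested were higher. *Acer2*, the Golgi alkaline ceramidase, rose from 13.7 ± 3.50 to 28.7 ± 3.22 CPM (SD, n = 3; log2 fold change 1.07, SE 0.19, adjusted p = 0.00159, edgeR). *Asah1*, the lysosomal acid ceramidase, which falls outside the rule for named genes and was chosen after its values were seen, rose from 40.7 ± 2.99 to 65.4 ± 3.67 CPM (log2 fold change 0.68, SE 0.10, adjusted p = 0.000632, edgeR). Of the lipid phosphate phosphatases, which dephosphorylate S1P outside the cell, *Plpp1* rose from 4.90 ± 1.18 to 10.5 ± 1.22 CPM (log2 fold change 1.09, SE 0.20, adjusted p = 0.00168, edgeR), while *Plpp3*, named after its values were seen, was lower (log2 fold change −0.34, adjusted p = 0.0339, edgeR). The *Plpp3* value turned to 0.11 with library size alone (adjusted p = 0.424), and its call was lost with upper-quartile scaling (adjusted p = 0.163), the filter of at least 10 counts (adjusted p = 0.0556), the replicate block (adjusted p = 0.0601) and without control 1, control 3, g*Spns1*-cKO 1 or g*Spns1*-cKO 3 (adjusted p 0.0568 to 0.118). *Plpp1* shares 452 of its 1750 exon bases with *Mtrex* on the opposite strand, which had 376 to 907 counts. *Plpp1* itself had 92 to 450 counts. The part of these shared bases in the *Plpp1* result was not tested.

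Ceramide synthases, which return sphingosine to ceramide, moved both ways, with 2 higher and 1 lower of 4 tested. *Cers4* rose from 2.70 ± 0.228 to 5.68 ± 2.21 CPM (log2 fold change 1.07, adjusted p = 0.0137, edgeR), a call lost without control 3 or g*Spns1*-cKO 2 (adjusted p = 0.0571 and 0.0529, edgeR). *Cers5* rose from 2.75 ± 0.476 to 5.27 ± 1.27 CPM (log2 fold change 0.94, adjusted p = 0.0108, edgeR). *Cers2*, the main ceramide synthase of liver, was the lower one, at 345 ± 27.5 against 228 ± 16.2 CPM (log2 fold change −0.59, adjusted p = 0.0041, edgeR). The call was lost with library size alone (−0.15, adjusted p = 0.318). It was named after its values were seen, like *Asah1*. *Acer2*, *Plpp1* and *Cers4* also belong to the genes the study displayed from these samples.

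Downstream of the lyase, *Aldh3a2*, the fatty aldehyde dehydrogenase that oxidizes the hexadecenal released by S1P cleavage, fell from 435 ± 83.9 to 182 ± 41.7 CPM (mean ± SD, n = 3). The log2 fold change was −1.26 (SE 0.19, adjusted p = 0.000779, edgeR), and the groups did not overlap. *Etnppl*, which degrades phosphoethanolamine, the other product, was at 64.5 ± 15.6 and 76.7 ± 10.7 CPM and did not pass the test (log2 fold change 0.25, adjusted p = 0.310, edgeR), though it did with library size alone (0.70, adjusted p = 0.00977). The lyase gene and the dehydrogenase gene moved in opposite directions in the same livers.

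Of the ABC transporters linked to S1P release, *Abcc1* rose from 1.43 ± 0.502 to 5.25 ± 0.511 CPM (log2 fold change 1.88, SE 0.28, adjusted p = 0.000547, edgeR), and the other two did not pass. Both plasma carriers fell on the TMM scale, and neither passed with library size alone. *Alb*, albumin, was at 69348 ± 7160 and 41886 ± 3981 CPM (log2 fold change −0.73, SE 0.18, adjusted p = 0.0101, edgeR), and *Apom* at 342 ± 61.4 and 238 ± 16.8 CPM (log2 fold change −0.52, SE 0.15, adjusted p = 0.0181, edgeR). *Alb* is itself one of the hepatocyte markers above, and with library size alone it was at −0.28 (adjusted p = 0.210). *Apom*, named after its values were seen, was then at −0.079 (adjusted p = 0.678), and its call was also lost with upper-quartile scaling (−0.39, adjusted p = 0.0610), without control 2 (−0.38, adjusted p = 0.0717) and without g*Spns1*-cKO 3 (−0.54, adjusted p = 0.0527).

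In the signaling layer most genes did not pass. Of 9 G alpha subunits and small GTPases, 1 rose, 1 fell and 7 did not pass. *Gnai1*, named after its values were seen, rose from 6.42 ± 0.924 to 10.5 ± 3.17 CPM with overlapping groups (log2 fold change 0.71, SE 0.22, adjusted p = 0.0281, edgeR). Among other settings, its call was lost with limma-voom (adjusted p = 0.0533) and with the replicate block (adjusted p = 0.0609, edgeR). *Gna12*, a G alpha subunit of the G12/13 class, fell from 142 ± 33.0 to 79.7 ± 5.89 CPM (log2 fold change −0.84, SE 0.17, adjusted p = 0.00308, edgeR). With library size alone it did not pass (−0.39, adjusted p = 0.0656). *Gna12* shares 456 of its 3416 exon bases with *Amz1* on the opposite strand, which had 16 to 200 counts. Of 4 regulators of *Sphk1* or *S1pr1*, the one that passed, *Cib1*, a calcium-binding partner of sphingosine kinase 1, was lower, at 83.9 ± 5.48 against 56.2 ± 9.53 CPM (log2 fold change −0.58, adjusted p = 0.00561, edgeR). *Cib1* did not pass with library size alone (−0.14, adjusted p = 0.398). It was named after its values were seen.

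**Figure D5:**
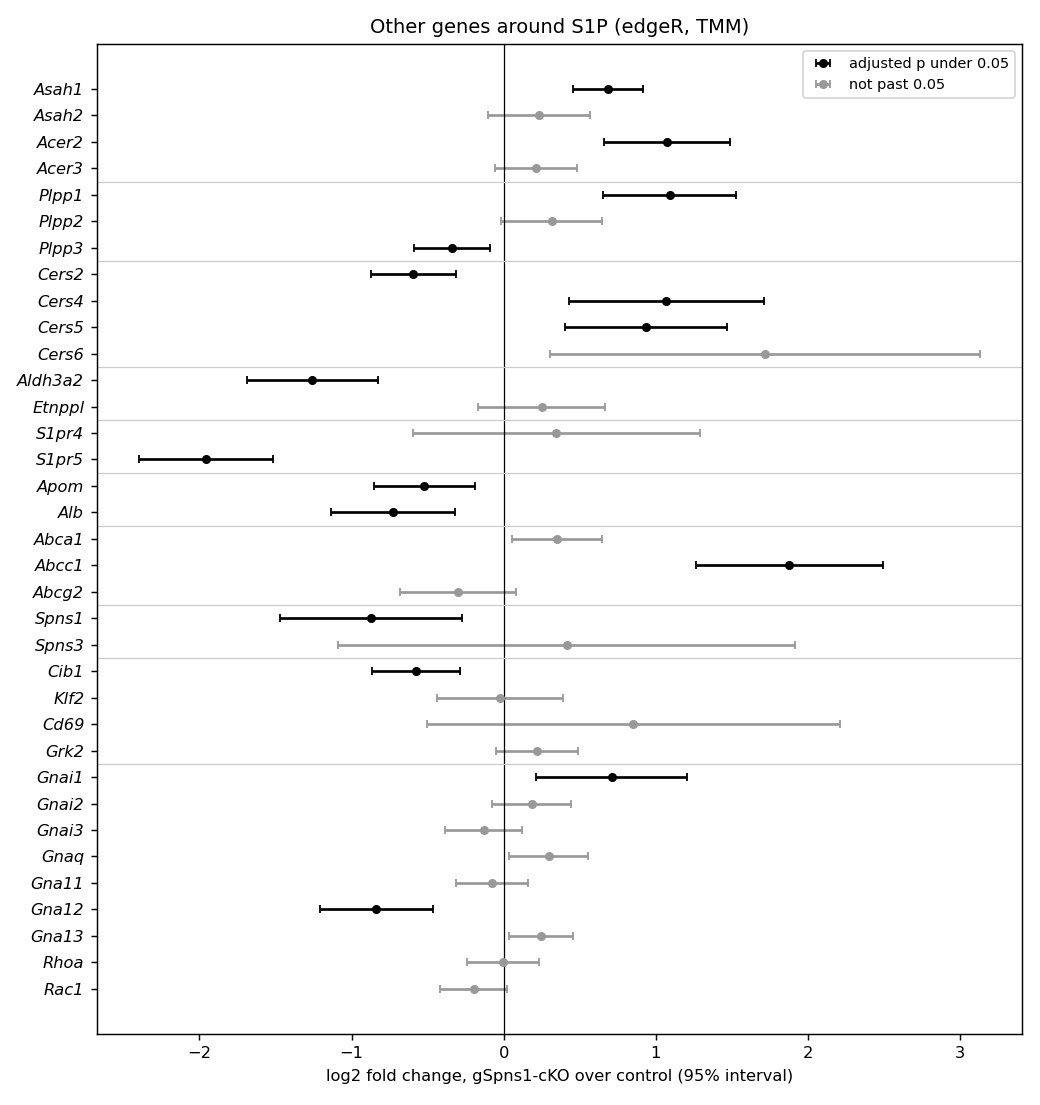
Log2 fold changes with 95% intervals (x axis, g*Spns1*-cKO over control, TMM scale) of the 35 other genes around S1P that were tested, grouped by role between the lines, with black for an adjusted p under 0.05 and gray otherwise. *S1pr5* (−1.96) and *Aldh3a2* (−1.26) lay farthest to the left and *Abcc1* (1.88) farthest to the right, ahead of *Cers6* (1.72), whose wide interval did not pass after adjustment.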

How the data were processed

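RNA-Seq counts of liver from 3 g*Spns1*-cKO and 3 control mice were used, grouped by the sample labels. The authors deposited whole-number counts per gene, not normalized, with gene lengths. Submitters' processing notes name fastp, HISAT2 2.0.5, featureCounts 1.5.0-p3 and mm10; strand handling is not given in the sources used here. FPKM columns and the authors' own comparison (group means, fold changes, p-values) were not used.

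Tests were run with edgeR 4.0.16 (R 4.3.3): filterByExpr by group, TMM scaling, and the robust quasi-likelihood test without covariates, with Benjamini-Hochberg adjustment over all 15449 genes and a call at an adjusted p under 0.05. The methods of the study state no test for these counts. Exact permutation tests were two-sided, on log2(CPM + 0.1). Values within a library are counts per kilobase of deposited gene length. Intervals are 95%. The totals, given in the report, set the precision, and the reads carry no molecular identifiers. Replicates differed by more than sampling noise (chi-square per gene 42.5 to 126).

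All S1P genes were reported. Of the list of other S1P genes, those past the threshold were named, up to the 10 largest changes, with *Spns1*, the sums of marker lists and overlapping opposite-strand genes. The S1P genes and all lists were chosen with earlier results of these data known. Alternatives were library size only, upper-quartile and RLE scaling, DESeq2 1.42.0, limma-voom (limma 3.58.1), 2 filters, a threshold of 0.01, a replicate block and leaving out each mouse. Positions are as deposited and were the same in GENCODE M21 (GRCm38).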

Additional observations from a re-analysis of the deposited data

How the results depend on the processing

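The rise of *Sphk1* and *Sgpl1* was called under each alternative that tested them, 14 for *Sphk1* (log2 fold change 2.34 to 3.22) and 15 for *Sgpl1* (0.49 to 1.01). Over 32 of the named genes and 15 alternatives, 409 of 477 values kept direction and side of the threshold, 51 lost the call, 12 gained it and 5 reversed. The reversals were *Sgpp1* (0.29), *Spns2* (0.15), *Mfsd2b* (0.17), *Plpp3* (0.11) and *Farsb* (0.088) with library size only. Calls of *Sphk2*, *Spns1*, *Gna12*, *Alb*, *Apom*, *Cers2*, *Cib1* and *Rpl18* were lost with it. *Cers6*, not called in the report (adjusted p = 0.0595), passed with it, with DESeq2, limma-voom and the replicate block, and without g*Spns1*-cKO 1 (adjusted p 0.00431 to 0.0237). That scaling gave 7 higher and 0 lower S1P genes, 20 higher and 2 lower other S1P genes, and 7289 higher and 970 lower genes of all; upper-quartile scaling gave 14 higher other S1P genes. With at least 10 counts in each library *Sphk1* and *Sgpp2* were not tested and 1 S1P gene was higher. At an adjusted p under 0.01, 2 S1P genes were higher and 0 lower, 4 other S1P genes were higher and 5 lower, and 1983 of all genes were higher and 1907 lower.

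Leaving out each mouse in turn gave 2 to 3 higher and 0 to 1 lower S1P genes, 6 to 8 higher and 6 to 9 lower other S1P genes, and 2365 to 3213 higher and 2125 to 3216 lower genes of all. The single lower S1P gene was *Sphk2*, and it was lost without control 1, control 2, g*Spns1*-cKO 2 or g*Spns1*-cKO 3. Same-numbered mice did not deviate together (correlations 0.037, 0.033 and −0.028 across genes), and the labels give no pairing. With the replicate block, 2 S1P genes were higher and 1 lower, 7 other S1P genes were higher and 9 lower, and 3084 and 3016 of all genes; *Sgpp2* did not pass (adjusted p = 0.0513). Depth limited *Sgpp2*, *Mfsd2b* and *Sphk1*, whose control libraries held 3 to 27 counts.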
